A study of Mus musculus with 12 samples.

Results

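The enzymes of glycolysis, of lactate production and of the pentose phosphate pathway were followed as a set of 32 mouse genes, taken by name from the tables of normalised read counts. All 32 were listed in the mRNA table of 41255 genes, and 28 of them in the footprint table of 10080 genes, in which Aldoc, Eno2, Ldhb and Pdk2 had no row. The samples were 6 monoclonal cultures of Ba/F3, a mouse lymphoid line that grows on interleukin-3. Retroviral vectors gave 3 of the cultures (clones 11, 13 and 35) human RPL10 with the R98S mutation and the other 3 (clones 28, 29 and 36) human RPL10 in *WT* form, and in both groups an shRNA lowered the cells' own Rpl10. Every culture grew from a single cell colony, was exposed to cycloheximide (100 μg/ml, 5 min) before lysis, and gave 1 library of ribosome-protected fragments (RPF, the stretches of mRNA covered by ribosomes) and 1 mRNA library, 12 libraries in all. With 3 clones per group, a property of the clones and an effect of the mutation can be told apart only through the spread between clones.

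Glycolysis splits glucose to pyruvate in a preparatory phase that spends ATP and a payoff phase that returns ATP and NADH. Dividing cells often turn the pyruvate into lactate, while the pentose phosphate pathway leaves glycolysis at glucose 6-phosphate and yields NADPH and the ribose of nucleotides. Most steps are catalysed by more than 1 isozyme, each from its own gene, and several of these genes are textbook targets of the hypoxia factor HIF-1 and of MYC, whose binding sites can share the core ACGTG.

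The mRNA libraries held between 6617457 (WT clone 28) and 23136595 reads and the RPF libraries between 3477723 (R98S clone 35) and 10883086. A value is a gene's read count divided by the size factor of its library, so 1 read in the mRNA library of WT clone 28 counts as 2.69 and in the other mRNA libraries as 0.784 to 0.86. Mouse Rpl10, to which reads of the human transgene can also map, was at 1449 to 2905 in the mRNA of R98S and at 2230.3 to 4501 in that of WT clones. The cells expressed both beta chains of the interleukin-3 receptor, and the mRNA of both was higher in every R98S clone than in every WT clone. Csf2rb ran from 52827 to 64432 in R98S and from 21027 to 48871 in WT clones, and Csf2rb2 from 41694 to 53531 and from 19925.5 to 31276. Of 11 lymphoid markers only 3 reached a mean of 10 (Ptprc, which was abundant, Cd79a and Cd79b). The B-lineage factor Pax5 was at 0 in all 6 mRNA libraries. Cd79a ran from 878 to 1357 in R98S and from 730 to 851 in WT clones, and Cd79b from 313 to 589 and from 163 to 303, both without overlap. Of 4 T cell, 3 macrophage and 3 fibroblast markers, Cd3d and Lyz2 alone had a mean of 10 or more. The summed mRNA of 7 mast cell and basophil markers was at 12241 to 15825 in R98S and 20397 to 26588 in WT clones, without overlap, most of it Gata2 (11145 to 15300.0 and 20183 to 26448), with Kit and Prss34 at 0 throughout. Cpa3, of the same list, went the other way, at 253 to 787 in R98S and 13.4 to 174 in WT clones. Mcpt8 and Ms4a2 overlapped between the genotypes. The part of these marker differences in the results below was not tested.

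Of the 32 members, 29 had a mean of at least 10 normalised counts in mRNA and 27 in RPF and were tested, on the scale log2(value + 1). Footprints on several glycolytic mRNAs were lower in R98S than in WT clones, while no member passed the test in mRNA. In RPF, 4 of the 27 members tested fell (phosphofructokinase genes Pfkp and Pfkm, the enolase gene Eno1 and the isomerase gene Gpi1) and none rose, at an adjusted p below 0.1 (limma, Benjamini-Hochberg over 9580 genes). Among all genes tested, 4.62% were called lower and 3.13% higher in RPF. In mRNA, 0 of 29 members were called at the same threshold, where 3.91% of all genes were called lower and 3.03% higher. At an unadjusted p under 0.05 in mRNA, 4 members were lower and 3 higher, beside 2036 of all 11344 genes in either direction. The median log2 difference, R98S minus WT, was -0.25 over the members and 0.01 over all genes in RPF, and -0.08 against 0.01 in mRNA. In these bulk libraries, fewer cells with a transcript and less of it per cell cannot be told apart.

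In RPF, 8 members had all 3 R98S clones under all 3 WT clones (Eno1, Gapdh, Gpi1, Pfkm, Pfkp, Pgam1, Pgk1 and Pkm) and 2 had them above (Pfkl and Rpe), of 27 tested. Over all genes these shares were 12.8% lower and 12.5% higher. In mRNA, 5 of 29 members lay wholly below (Pdk3, Pfkp, Pgam1, Pgk1 and Pgls, against 11.6% of all genes) and 4 wholly above (Hk1, Rpe, Taldo1 and Tkt, against 11.9%). Pfkp, Pgk1 and Pgam1 were below the WT clones in both assays, as 6.12% of the 9501 genes tested in both were, and Rpe was above in both, as 5.22% were. 

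**Figure D1:**
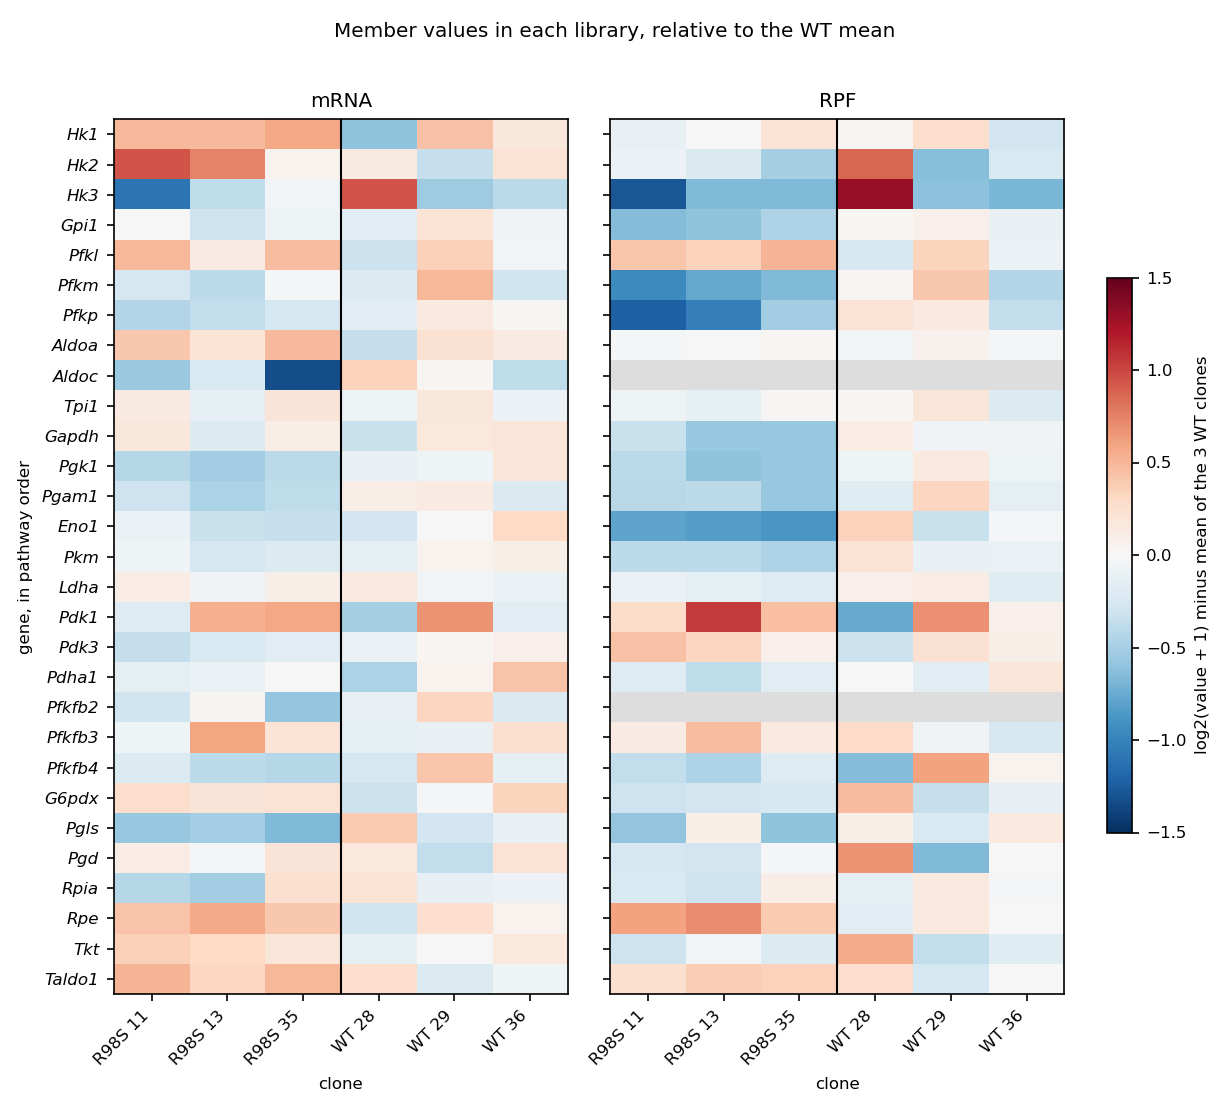
Heat map of every member tested in at least 1 assay (rows, in pathway order) in each clone (columns), for mRNA on the left and RPF on the right. Colour gives log2(value + 1) minus the mean of the 3 WT clones, cut at -1.5 and 1.5, and grey marks genes not tested; the block from Gapdh to Pkm is below the WT mean in all 3 R98S clones in RPF, and Hk2, Hk3, Pgd and Tkt stand out in the footprints of WT clone 28.

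As a share of all reads of a library, which does not depend on size factors, the 28 members took 2.79%, 2.80% and 2.75% of the footprints in R98S clones 11, 13 and 35. In WT clones 28, 29 and 36 they took 3.11%, 3.25% and 2.97%, so the genotypes did not overlap. In mRNA the 32 members took 1.60% to 1.80% of the reads in R98S and 1.56% to 1.79% in WT clones, which overlapped. Most of the difference in footprints lay in the payoff phase, which took 1.08% to 1.17% of the footprints in R98S and 1.41% to 1.51% in WT clones. Its mean share of the mRNA reads was also lower in R98S (0.703% against 0.803%), with ranges that overlapped (0.663% to 0.754% and 0.728% to 0.85%). The mean mRNA share of the preparatory phase was higher in R98S (0.608% against 0.518%), also with overlap. These shares are given as a description, since the set was assembled with results of these data known.

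Promoter sequence is shown for the genes on which the comparisons below turn, namely those called in RPF and those whose genotypes did not overlap in both assays (7 genes). Of these, Gpi1, Pfkp, Pgk1, Pgam1 and Rpe have 1 RefSeq promoter entry each (GRCm38.p6), and the 250 bases before the start of each are printed 5′ to 3′ in the direction of transcription, with every ACGTG, on either strand, in capitals.
Pgk1, chrX:106186850-106187099, plus strand: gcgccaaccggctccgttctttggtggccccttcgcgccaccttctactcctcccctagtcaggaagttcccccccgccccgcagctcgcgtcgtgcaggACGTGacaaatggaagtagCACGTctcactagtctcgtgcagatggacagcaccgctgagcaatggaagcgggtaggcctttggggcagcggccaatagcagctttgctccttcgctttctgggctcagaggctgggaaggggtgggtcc
Pgam1, chr19:41911621-41911870, plus strand: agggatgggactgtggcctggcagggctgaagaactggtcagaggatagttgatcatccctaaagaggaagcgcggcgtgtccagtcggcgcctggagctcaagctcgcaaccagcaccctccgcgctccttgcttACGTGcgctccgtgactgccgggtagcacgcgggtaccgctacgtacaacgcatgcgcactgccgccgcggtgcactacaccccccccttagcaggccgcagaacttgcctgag
Pfkp, chr13:6648772-6649021, minus strand: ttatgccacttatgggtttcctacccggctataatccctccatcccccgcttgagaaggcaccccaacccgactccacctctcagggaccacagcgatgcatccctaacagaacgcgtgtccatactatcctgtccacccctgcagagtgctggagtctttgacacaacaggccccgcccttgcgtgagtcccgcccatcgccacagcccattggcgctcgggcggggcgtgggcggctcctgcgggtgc
Gpi1, chr7:34230337-34230586, minus strand: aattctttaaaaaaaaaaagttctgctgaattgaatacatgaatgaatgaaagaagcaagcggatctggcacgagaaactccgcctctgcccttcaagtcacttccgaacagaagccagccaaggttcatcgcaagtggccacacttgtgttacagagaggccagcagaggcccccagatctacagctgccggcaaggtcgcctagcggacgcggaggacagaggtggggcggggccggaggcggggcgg
Rpe, chr1:66700581-66700830, plus strand: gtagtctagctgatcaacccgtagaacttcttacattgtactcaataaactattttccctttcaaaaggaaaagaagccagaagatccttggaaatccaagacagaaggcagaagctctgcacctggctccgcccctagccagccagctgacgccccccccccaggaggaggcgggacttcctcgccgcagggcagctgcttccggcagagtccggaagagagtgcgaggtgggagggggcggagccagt
The window of Pgk1 held ACGTG at 2 places, 1 on each strand, and that of Pgam1 at 1 place. No ACGTG was found in the windows of Pfkp, Gpi1 and Rpe. Other forms of the HIF-1 site, such as the GCGTG in the windows of Pfkp and Pgam1, were not counted. Across the set, 12 of 32 members (37.5%) had ACGTG in at least 1 of their windows (Hk2, Hk3, Pfkm, Aldoa, Pgk1, Pgam1, Pkm, Ldha, Pdk2, Pdk3, Pfkfb2 and Pfkfb3). Among the 8366 genes that were tested for mRNA and have an entry, 25.5% held it, and among all 27025 genes with an entry 18.5% did. Counted by window rather than by gene, 16.6% of all 32851 windows of this length held it. The members include Eno2, Ldhb and Pdk2, which were not tested for mRNA. The palindrome CACGTG, which contains ACGTG, was in windows of 5 members (15.6%), against 9.85% of the tested genes, 6.86% of all genes with an entry and 6.02% of all windows. A match describes letters only, and members with and without it are found among the genes that were lower in R98S clones.

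Hexokinase traps glucose in the cell as glucose 6-phosphate. Per kb of exon, Hk2 had the highest mean hexokinase mRNA (653 normalised reads per kb in WT clones, against 435 for Hk1 and 14.4 for Hk3). Hk1 led in WT clone 29 (52.3% of hexokinase mRNA against 46.9%). With the length of the longest transcript in place of all exons, Hk1 led in the means of both genotypes, at 52.9% against 46.6% in R98S and 53.6% against 45.2% in WT clones. The mRNA of Hk2 (chr6:82725025-82774454, mm10) was at 7404, 6453 and 3995 in R98S clones 11, 13 and 35 and 4232, 3022 and 4436 in WT clones 28, 29 and 36. R98S clones 11 and 13 were above all others, and R98S clone 35 was within the range of WT clones. The log2 difference was 0.58 ± 0.25 (SE, adjusted p = 0.265). Footprints of Hk2 were at 2970.1, 2713 and 2237 in R98S clones 11, 13 and 35 and 5729.9, 2029 and 2696 in WT clones 28, 29 and 36. WT clone 28 was far above the other 5, and the log2 difference was -0.27 ± 0.32 (SE, adjusted p = 0.689). Hk1, the housekeeping hexokinase, had mRNA values that ran from 4987 to 5300.0 in R98S and from 2342 to 4818 in WT clones without overlap, with the low end in WT clone 28, whereas its footprints ran from 1839.5 to 2294 in R98S and from 1631 to 2399.8 in WT clones. Footprints of Hk1 relative to its mRNA did not pass the test, at a log2 difference of -0.49 ± 0.27 (SE, adjusted p = 0.658). Hk3, which is scarce, ranged from 12.8 to 20.2 in R98S and from 19.8 to 82.2 in WT clones in RPF, and its highest value in both assays was that of WT clone 28. Hexokinase mRNA summed per kb over the 3 genes was 1303 to 1831 in R98S and 1008 to 1220 in WT clones, while the summed footprint density was 1572 to 1697 and 1529 to 2806.

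Gpi1, the isomerase of the next step, had fewer footprints in R98S clones on a nearly even mRNA level. Gpi1 RPF (chr7:34201330-34230336) was at 5056, 5206 and 5756 in R98S clones 11, 13 and 35 and 8089, 8359 and 7358 in WT clones 28, 29 and 36, all 3 R98S clones lying below all 3 WT clones. It fell by 32.7%, a log2 difference of -0.57 ± 0.17 (SE, adjusted p = 0.0967). Gpi1 mRNA was at 14743, 11898 and 13941 in R98S clones 11, 13 and 35 and 13161, 16988 and 14196 in WT clones 28, 29 and 36, with overlapping genotypes and a log2 difference of -0.13 ± 0.18 (SE, adjusted p = 0.768). The median RPF difference of all genes on chromosome 7, which also holds Aldoa, Ldha and Taldo1, was 0.20, opposite in sign to that of Gpi1.

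The phosphofructokinases commit the sugar to glycolysis, and here the footprint shares of the family did not overlap between the genotypes, a comparison that was not tested. Pfkp, the platelet-type gene (chr13:6579768-6648777), had RPF values of 1607, 1839 and 2601 in R98S clones 11, 13 and 35 and 4364, 4145 and 2898 in WT clones 28, 29 and 36. The R98S clones were below every WT clone, clone 35 closest to them, and Pfkp RPF fell by 47.3%, a log2 difference of -0.92 ± 0.23 (SE, adjusted p = 0.0528). Its mRNA was at 3636, 3822 and 4104 in R98S clones 11, 13 and 35 and 4439, 5454 and 4996 in WT clones 28, 29 and 36, again without overlap but with a smaller log2 difference of -0.36 ± 0.16 (SE, adjusted p = 0.269). Pfkm, the muscle-type gene (chr15:98092589-98132451), was at 208, 238 and 255 in R98S clones 11, 13 and 35 and 414, 537 and 299 in WT clones 28, 29 and 36 in RPF. It fell by 42.4%, a log2 difference of -0.80 ± 0.23 (SE, adjusted p = 0.0856), on mRNA values of 588, 532 and 690.3 in R98S clones 11, 13 and 35 and 607, 992 and 569.7 in WT clones 28, 29 and 36 that overlapped, for which the log2 difference was -0.22 ± 0.24 (SE, adjusted p = 0.691). The median RPF difference of all genes was -0.12 on chromosome 13, which holds Pfkp and Hk3, and -0.02 on chromosome 15, which holds Pfkm.

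Pfkl, the liver-type gene and the most abundant phosphofructokinase mRNA per kb of exon (654 in WT clones, 370.3 for Pfkp and 216 for Pfkm), went the other way without passing the test. Its RPF was at 3847, 3686 and 4134 in R98S clones 11, 13 and 35 and 2443, 3656 and 2716 in WT clones 28, 29 and 36. R98S clones were above WT clones with 1 pair of values almost touching, and the log2 difference was 0.42 ± 0.19 (SE, adjusted p = 0.247). Pfkl mRNA was at 6039.6, 4654 and 5924 in R98S clones 11, 13 and 35 and 3435, 5495 and 4161 in WT clones 28, 29 and 36, with a log2 difference of 0.36 ± 0.21 (SE, adjusted p = 0.411). As a share of phosphofructokinase footprints per kb of coding sequence, Pfkl ran from 61.9% to 70.4% in R98S and from 36.4% to 48.8% in WT clones. The share of Pfkp ran from 26.1% to 34.5% in R98S and from 46.2% to 57.8% in WT clones, and that of Pfkm from 3.56% to 4.02% in R98S and from 5.03% to 6.42% in WT clones. None of the 3 shares overlapped between genotypes. The 3 shares of a clone add up to the whole, so they are not independent of each other. In mRNA the share of Pfkl ran from 61.1% to 66.9% in R98S and from 50.1% to 53.9% in WT clones and that of Pfkp from 20.1% to 25% in R98S and from 26.6% to 32.2% in WT clones, also without overlap. The mRNA share of Pfkm overlapped (from 13% to 14.8% in R98S and from 14.6% to 19.5% in WT clones). With longest-transcript lengths it ran from 9.11% to 10.4% in R98S and from 10.5% to 14.1% in WT clones, just without overlap. The 3 genes together had a footprint density of 2398 to 2931 in R98S and 2442 to 3438 in WT clones, which overlapped. Shares within a library do not depend on its size factor, and for 3 clones against 3 an exact permutation test of any such share cannot give a two-sided p below 0.1.

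**Figure D2:**
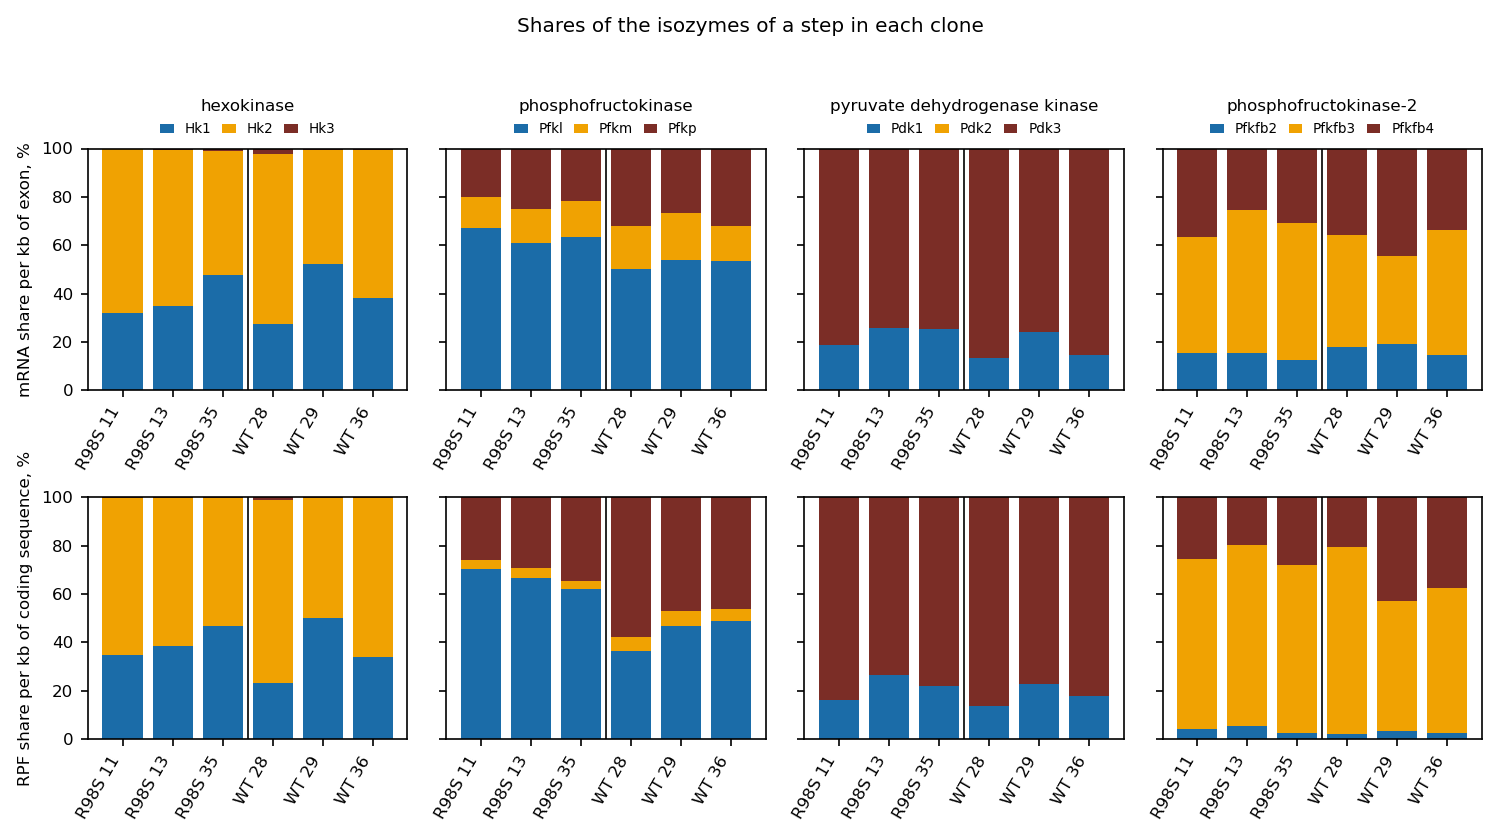
Stacked bars, from 0 to 100%, give the share of each isozyme among the genes of its step in each clone, as mRNA reads per kb of exon (top) or footprints per kb of coding sequence (bottom). In the phosphofructokinase panels Pfkl (blue) takes 61.9% to 70.4% of the footprints in R98S and 36.4% to 48.8% in WT clones, whereas the hexokinase, pyruvate dehydrogenase kinase and phosphofructokinase-2 panels show shares that mix between the genotypes, apart from the small footprint share of Hk3.

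Aldolase cleaves fructose 1,6-bisphosphate, and Tpi1 interconverts its products. Aldoa (chr7:126795234-126800751) supplied nearly all aldolase mRNA, since Aldoc stayed between 5.16 and 18.8 normalised counts. Aldoa mRNA was at 53356, 46264 and 56371 in R98S clones 11, 13 and 35 and 31502, 47241 and 43816 in WT clones 28, 29 and 36, lowest in WT clone 28. Aldoa RPF was at 34418, 34482 and 35531 in R98S clones 11, 13 and 35 and 33612, 36301 and 34289 in WT clones 28, 29 and 36, a narrow range in which the genotypes overlapped, and its log2 difference was 0.00 ± 0.21 (SE, adjusted p = 0.993), with a 95% interval from -0.45 to 0.46. Tpi1 RPF ran from 13283 to 14917 in R98S and from 12808 to 16713 in WT clones, with a log2 difference of -0.07 ± 0.20 (SE, adjusted p = 0.879). Neither gene passed the test in mRNA.

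In the payoff phase, the footprints of all 5 genes tested (Gapdh, Pgk1, Pgam1, Eno1 and Pkm) were lower in each R98S clone than in each WT clone, and Eno1 passed the test. The median log2 difference over the 5 was -0.49 in RPF and -0.26 in mRNA, and the RPF median stayed between -0.57 and -0.40 over all 15 settings tried. Eno1 (chr4:150236721-150248879), which makes phosphoenolpyruvate, was at 5614, 5479 and 5330.0 in R98S clones 11, 13 and 35 and 12424, 7748 and 9606 in WT clones 28, 29 and 36 in RPF. The R98S clones lay close together and the WT clones were spread, with clone 28 at the top. Eno1 RPF fell by 43.8%, a log2 difference of -0.83 ± 0.21 (SE, adjusted p = 0.0518). Eno1 mRNA was at 14053, 12015 and 11846 in R98S clones 11, 13 and 35 and 12364, 15049.9 and 18508 in WT clones 28, 29 and 36, overlapping between genotypes with a log2 difference of -0.26 ± 0.19 (SE, adjusted p = 0.533). The median RPF difference of all genes on chromosome 4, the chromosome of Eno1 and Pgd, was 0.21. Eno2, the neuronal enolase, had 0 to 2.46 normalised counts in mRNA.

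Pgk1 and Pgam1 were lower by about the same amount in both assays and passed the test in neither. Pgk1, which makes the first ATP of the payoff phase (chrX:106187100-106203699), had mRNA at 15105, 14126 and 15289.5 in R98S clones 11, 13 and 35 and 18679.5, 19404 and 22877 in WT clones 28, 29 and 36. Its RPF was at 6156, 5324 and 5453 in R98S clones 11, 13 and 35 and 7757, 8975 and 7677 in WT clones 28, 29 and 36. The log2 difference was -0.45 ± 0.17 (SE, adjusted p = 0.186) in mRNA and -0.53 ± 0.18 (SE, adjusted p = 0.128) in RPF, and no R98S clone reached a WT clone in either. The median RPF difference of all genes on the X chromosome was -0.19, and with the median of each chromosome removed the RPF difference of Pgk1 was -0.34. Pgam1 (chr19:41911923-41918660), the mutase that precedes enolase, had mRNA at 10842, 9691 and 10326 in R98S clones 11, 13 and 35 and 14375, 14614 and 11541 in WT clones 28, 29 and 36. Its RPF was at 2203, 2234 and 1976 in R98S clones 11, 13 and 35 and 2576, 3661 and 2666 in WT clones 28, 29 and 36. The log2 differences of Pgam1 were -0.39 ± 0.17 (SE, adjusted p = 0.266) in mRNA and -0.46 ± 0.19 (SE, adjusted p = 0.201) in RPF.

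Gapdh, often used as a reference gene, had mRNA values that overlapped between genotypes (log2 difference 0.02 ± 0.20 (SE, adjusted p = 0.975)), while its RPF ran from 7654 to 9024 in R98S and from 10889.9 to 12288 in WT clones, with a log2 difference of -0.49 ± 0.18 (SE, adjusted p = 0.163). Footprints relative to mRNA did not pass the test for Gapdh (log2 TE difference -0.51 ± 0.23 (SE, adjusted p = 0.634)), and without WT clone 28 that difference was -0.28. Pkm, the pyruvate kinase gene, had the highest mRNA level per kb of exon of the set in WT clones (15839, rank 38 of the 10818 genes tested that have a gene model, against 14034 for Aldoa). In R98S clones Aldoa was highest (17862 against 14008 for Pkm). Pkm RPF ran from 42478 to 44546 in R98S and from 54135 to 67998 in WT clones, with a log2 difference of -0.42 ± 0.23 (SE, adjusted p = 0.331). Pkm reads were counted per gene, so its splice forms cannot be separated here. Gapdh, Pgk1, Pgam1, Eno1, Aldoa, Tpi1 and Ldha have many processed pseudogenes. With the mapping quality minimum of 10, reads that fit a copy equally well would be lost from their counts.

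**Figure D3:**
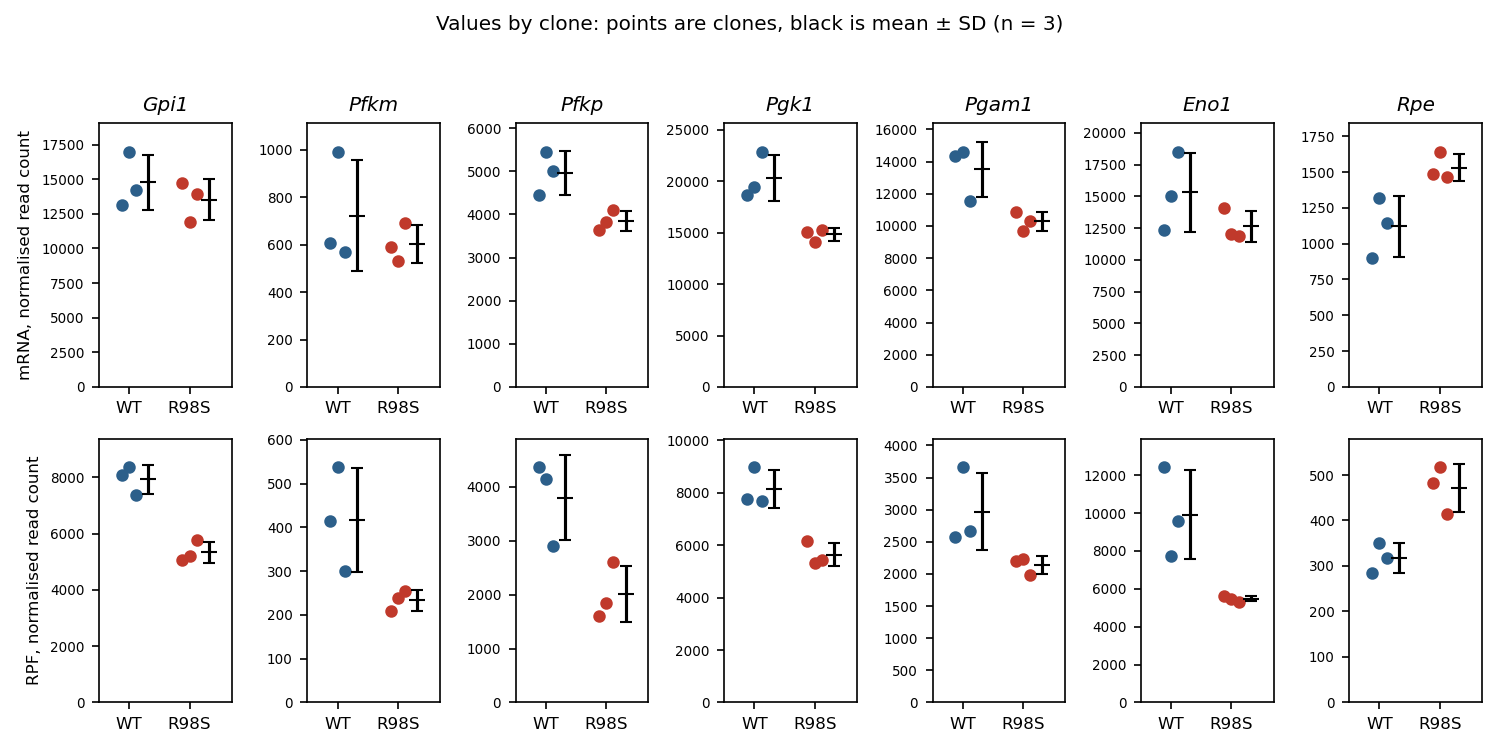
Normalised read counts of the 7 genes that were called in RPF or did not overlap in both assays, for mRNA (top) and RPF (bottom), on axes that start at 0. Each point is 1 clone and the black mark with bars is the mean ± SD of 3 clones; in RPF the 3 R98S points are below the 3 WT points for 6 genes and above them for Rpe, whereas in mRNA Gpi1, Pfkm and Eno1 overlap.

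Lactate dehydrogenase regenerates NAD+ from NADH. Ldhb was listed at 0 in all 6 mRNA libraries. Ldhc, the testis form and no member, was scarce (from 18.8 to 106 in R98S and from 13.4 to 61.9 in WT clones in mRNA). It had log2 differences of 0.82 ± 0.71 (SE, adjusted p = 0.598) in mRNA and 0.49 ± 0.63 (SE, adjusted p = 0.706) in RPF. Ldha mRNA was at 40066, 35628 and 39288 in R98S clones 11, 13 and 35 and 40968, 35839 and 34427 in WT clones 28, 29 and 36, and Ldha RPF at 13106, 12806 and 12304 in R98S clones 11, 13 and 35 and 14842, 15239 and 12388 in WT clones 28, 29 and 36. The genotypes overlapped in both, with log2 differences of 0.05 ± 0.18 (SE, adjusted p = 0.921) and -0.15 ± 0.19 (SE, adjusted p = 0.709), and the 95% interval of the RPF difference ran from -0.56 to 0.27.

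Pyruvate dehydrogenase kinases block the conversion of pyruvate to acetyl-CoA inside mitochondria by phosphorylating the subunit encoded by Pdha1. Pdk3 was the main kinase mRNA per kb of exon (745 in WT clones, 161 for Pdk1), and Pdk2 stayed between 0 and 2.69 normalised counts. The mRNA of Pdk3 was at 1487, 1623 and 1708 in R98S clones 11, 13 and 35 and 1778, 1943 and 2005 in WT clones 28, 29 and 36, below the WT clones throughout (log2 difference -0.25 ± 0.16 (SE, adjusted p = 0.455)). Its RPF was at 755, 696 and 583 in R98S clones 11, 13 and 35 and 442, 652 and 590.4 in WT clones 28, 29 and 36, where the genotypes overlapped and the log2 difference was 0.28 ± 0.20 (SE, adjusted p = 0.466). Pdk1, a kinase gene induced by hypoxia, had a log2 difference of 0.59 ± 0.35 (SE, adjusted p = 0.373) in RPF, with values from 74.5 in WT clone 28 to 262 in R98S clone 13. Pdha1 had log2 differences of -0.08 ± 0.22 (SE, adjusted p = 0.895) in mRNA and -0.25 ± 0.17 (SE, adjusted p = 0.451) in RPF.

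The bifunctional Pfkfb enzymes set fructose 2,6-bisphosphate, the main activator of phosphofructokinase. Pfkfb3 led this family in mRNA per kb of exon (86.9 in WT clones, 74.5 for Pfkfb4 and 33.5 for Pfkfb2). Pfkfb3 mRNA was at 622, 982 and 752 in R98S clones 11, 13 and 35 and 596, 605 and 770.3 in WT clones 28, 29 and 36, and its RPF at 182, 232 and 186 in R98S clones 11, 13 and 35 and 204, 162 and 142 in WT clones 28, 29 and 36, with overlap in both and log2 differences of 0.24 ± 0.22 (SE, adjusted p = 0.621) and 0.25 ± 0.22 (SE, adjusted p = 0.57). Pfkfb4 ran from 51.1 to 62.1 in R98S and from 44.9 to 108 in WT clones in RPF (log2 difference -0.34 ± 0.33 (SE, adjusted p = 0.598)). Pfkfb2 had 4.78 to 15.9 normalised footprint counts and was not tested in RPF.

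In the pentose phosphate pathway no member passed the test in either assay. G6pdx, Pgls and Pgd form the oxidative branch, which makes NADPH. All 3 had negative log2 differences in RPF, namely -0.28 ± 0.21 (SE, adjusted p = 0.507) for G6pdx, -0.37 ± 0.22 (SE, adjusted p = 0.374) for Pgls and -0.19 ± 0.29 (SE, adjusted p = 0.759) for Pgd. The genotypes overlapped in each. In mRNA the differences were 0.23 ± 0.19 (SE, adjusted p = 0.59) for G6pdx and 0.10 ± 0.19 (SE, adjusted p = 0.846) for Pgd, also with overlap. Pgls, the lactonase, had the lowest adjusted p of the set in mRNA, at a log2 difference of -0.58 ± 0.20 (SE, adjusted p = 0.157), with values from 1931 to 2149 in R98S and from 2507 to 4036 in WT clones. Pgls lies on chromosome 8, where the median mRNA difference of all genes was -0.22.

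The non-oxidative branch (Rpia, Rpe, Tkt and Taldo1) converts between ribose 5-phosphate and glycolytic sugars. It took 0.0936% to 0.098% of the mRNA reads in R98S and 0.0738% to 0.0782% in WT clones, without overlap, and 0.186% to 0.213% against 0.158% to 0.216% of the footprints, with overlap. Rpe, the epimerase (chr1:66700831-66719805), had mRNA at 1488, 1642 and 1465 in R98S clones 11, 13 and 35 and 897, 1321 and 1146 in WT clones 28, 29 and 36. Its RPF was at 483, 517 and 415 in R98S clones 11, 13 and 35 and 285, 351 and 318 in WT clones 28, 29 and 36. All R98S values were above all WT values in both, with log2 differences of 0.47 ± 0.19 (SE, adjusted p = 0.23) and 0.57 ± 0.18 (SE, adjusted p = 0.117). The median difference of all genes on chromosome 1 was 0.18 in mRNA and 0.16 in RPF, and with the median of each chromosome removed Rpe was at 0.26 and 0.40. Taldo1, the transaldolase, had a log2 difference of 0.44 ± 0.18 (SE, adjusted p = 0.223) in mRNA and 0.32 ± 0.19 (SE, adjusted p = 0.37) in RPF. Tkt, the transketolase, was higher in every R98S clone in mRNA (log2 difference 0.28 ± 0.16 (SE, adjusted p = 0.414)), but its RPF (log2 difference -0.18 ± 0.24 (SE, adjusted p = 0.715)) overlapped, with WT clone 28 at 9222 and the other 5 clones between 4879.7 and 6124. Rpia, the isomerase, had log2 differences of -0.23 ± 0.23 (SE, adjusted p = 0.645) and -0.15 ± 0.18 (SE, adjusted p = 0.701).

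**Figure D4:**
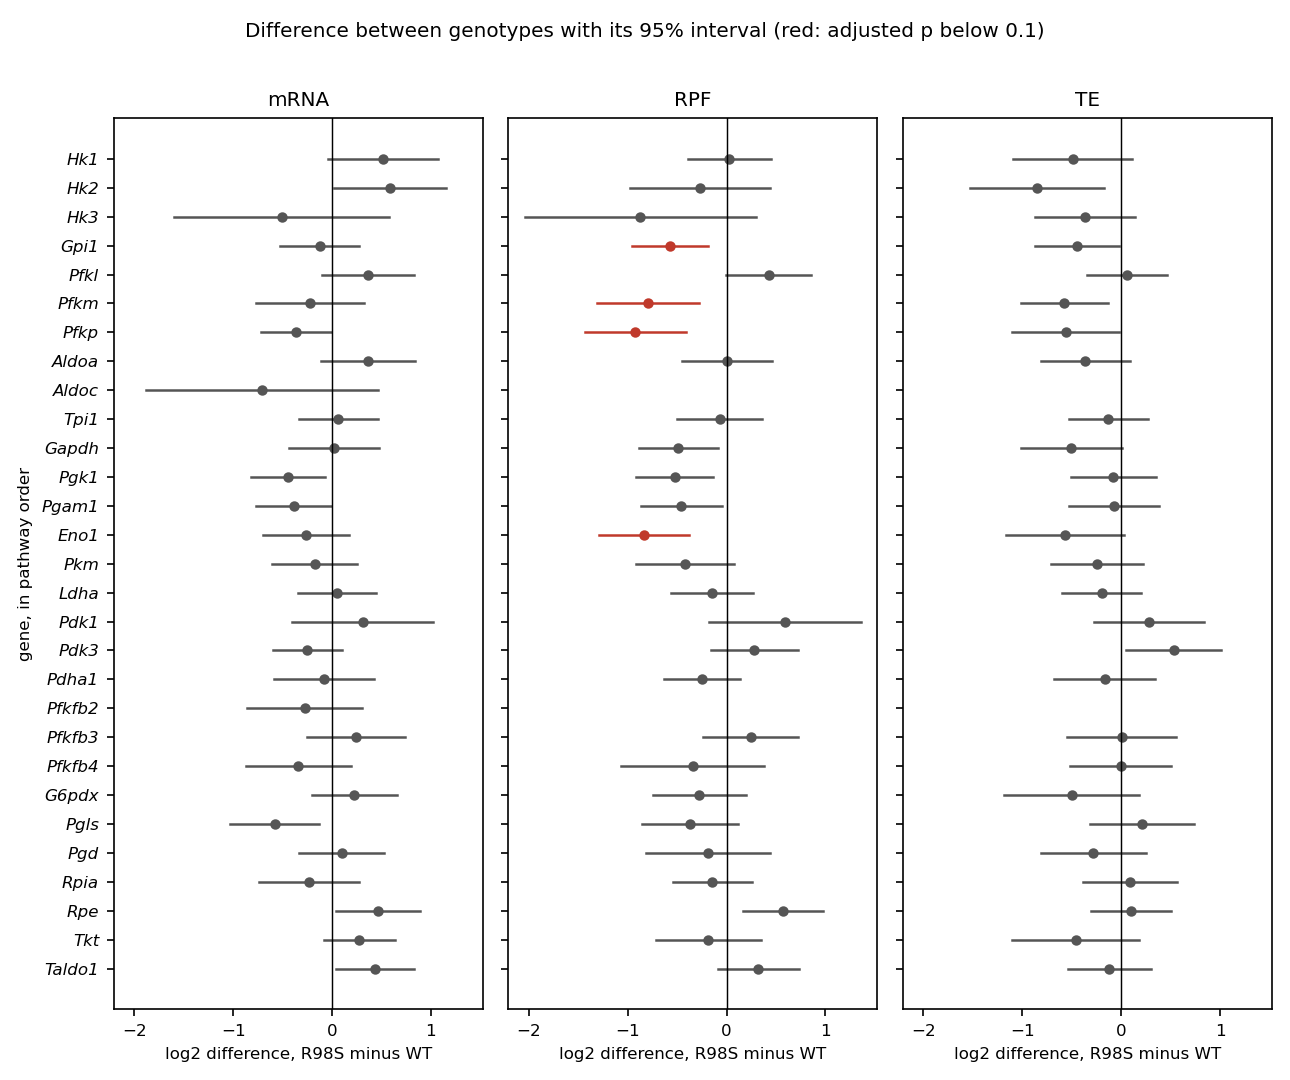
Log2 differences, R98S minus WT, of the members in mRNA, RPF and translation efficiency (TE), in pathway order, with 95% intervals from limma as lines and red for an adjusted p below 0.1. The red points are Gpi1, Pfkm, Pfkp and Eno1 in RPF, between -0.57 and -0.92, and no point is red in mRNA or TE.

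The 4 calls in RPF varied with the clones included. Leaving out R98S clone 35 kept those of Eno1, Pfkm and Pfkp and added Rpe, leaving out WT clone 36 kept Pfkm and Pfkp, and leaving out WT clone 29 kept Eno1 and added Pfkl. Leaving out R98S clone 11, R98S clone 13 or WT clone 28 left no member called, although all 4 log2 differences stayed below 0. Without WT clone 28 they were -0.81 for Pfkp, -0.66 for Eno1, -0.78 for Pfkm and -0.56 for Gpi1, at adjusted p-values of 0.133, 0.108, 0.179 and 0.151. Over all genes, the fits without R98S clone 11, R98S clone 13 or WT clone 28 called 272, 229 and 379, against 743 with all clones. DESeq2 on the recovered reads called 7 members in RPF (Eno1, Gapdh, Gpi1, Pfkm, Pfkp, Pgk1 and Rpe) and 2 in mRNA (Pgk1 and Pgls). Among all genes it called 1095 in RPF and 1283 in mRNA.

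TE, the footprints of a gene relative to its mRNA within a clone, asks whether the footprint differences exceed those of mRNA, and was tested where all 12 libraries had at least 10 normalised counts. No member passed the test for TE, and no gene was called higher among the 9043 tested (0.0% called higher and 0.0221% called lower). At an unadjusted p under 0.05, 4 of 27 members were lower (Hk2, Pfkm, Gpi1 and Pfkp) and Pdk3 was higher, beside 710 of all 9043 genes in either direction. Hk2 had the largest negative value, a log2 difference of -0.85 ± 0.30 (SE, adjusted p = 0.629), with ratios of 0.401, 0.42 and 0.56 in R98S clones and 1.35, 0.671 and 0.608 in WT clones. The 4 genes called in RPF had log2 TE differences of -0.57 ± 0.20 (SE, adjusted p = 0.629) for Pfkm, -0.57 ± 0.27 (SE, adjusted p = 0.635) for Eno1, -0.56 ± 0.24 (SE, adjusted p = 0.629) for Pfkp and -0.45 ± 0.19 (SE, adjusted p = 0.629) for Gpi1. For Pgk1 and Pgam1 the values were -0.08 and -0.07, with 95% intervals from -0.51 to 0.35 and from -0.53 to 0.39. Pdk3, with a log2 difference of 0.53 ± 0.21 (SE, adjusted p = 0.629), had ratios above all WT clones in each R98S clone.

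The TE ratios of R98S clones were wholly below those of WT clones for 8 of 27 members (Aldoa, Eno1, G6pdx, Gapdh, Gpi1, Hk2, Ldha and Pfkm, against 7.33% of all genes) and wholly above for 1 (Pdk3, against 7.46%). WT clone 28, the clone of the shallow mRNA library, had the highest ratio of the 6 clones for 16 of the 27 members and the lowest for 6. How often this clone was highest or lowest over all genes was not counted. Without this clone the median log2 TE difference of the members was -0.11 instead of -0.20, that of Hk2 was -0.49 and that of Eno1 -0.25, and 20 of 27 members were below 0 with or without it.

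Between genes, footprints per kb of coding sequence over mRNA per kb of exon gave a measure of ribosome load that depends on the lengths used. The ratio was set to 0, on the log2 scale, at the median of the 8786 genes with a coding model in each clone. In WT clones, 20 of the 27 members were above that median, and in R98S clones 19. Pfkp had the highest mean in WT clones, 1.98 ± 0.33 (SD, n = 3), at the percentile 96.4 of all genes, next to Tkt at 1.85 ± 0.55, Rpia at 1.60 ± 0.36 and Gapdh at 1.59 ± 0.33, whose values overlapped. Pgam1 and Pdk3 were lowest, at -0.70 ± 0.31 and -0.67 ± 0.27. Pgk1 and Pgam1 were thus among the most abundant mRNAs of the set, at 9055 and 6816 per kb, while their ratio was at the percentiles 34.1 and 25.4. Reads lost to pseudogene copies could change these ratios, which was not tested. In R98S clones Pfkp was at 1.41 ± 0.26 and Pfkm at -0.92 ± 0.18, against -0.34 ± 0.15 for Pfkm in WT clones. With the lengths of the longest transcript and coding sequence, an alternative chosen after seeing the data, Pfkp stayed highest in WT clones at 1.92 ± 0.32 and the percentile 96.3. Tkt was then at 1.08 ± 0.54, behind Gapdh, Pgls, Rpia, Hk2 and Pgd. Pdk1 was lowest at -0.76 ± 0.32. Under these lengths 20 of the 27 members were above the median gene in WT clones and 17 in R98S clones. Pgk1 and Pgam1 were at the percentiles 38.2 and 32.7.

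**Figure D5:**
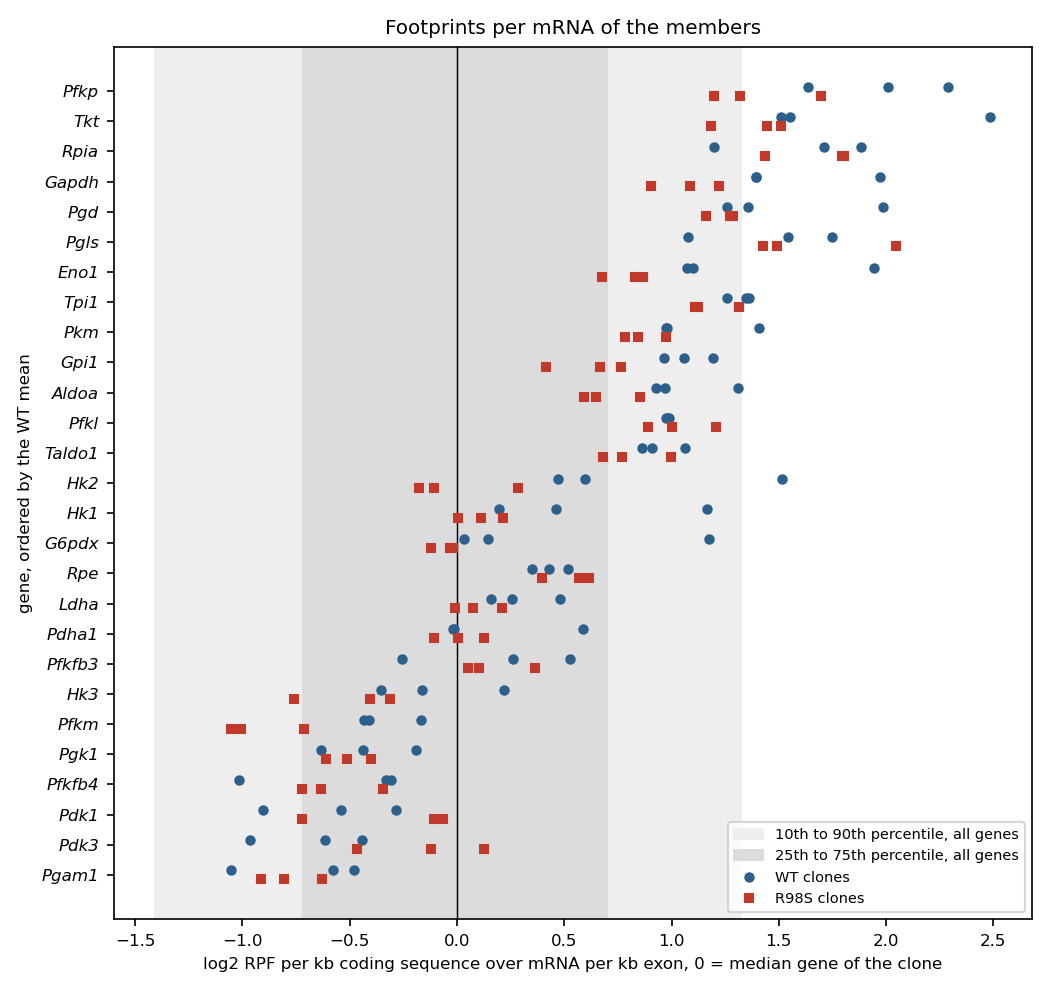
Footprint density over mRNA density for the 27 members with TE values, on a log2 scale where 0 is the median gene of the clone, ordered by the mean of the WT clones. Blue circles are the 3 WT clones, red squares the 3 R98S clones, and the grey bands hold the middle of all genes in WT clones; Pfkp, Tkt and Rpia are at the top and Pgam1 and Pdk3 at the bottom, and the blue point farthest right for Hk1, Hk2, G6pdx, Eno1 and Tkt is WT clone 28.

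Other genes of glucose use were read from 8 lists with 83 genes that are not members. In mRNA, 3 of the 61 tested rose and 4 fell, in RPF 3 of 60 rose and 5 fell, and in TE 0 of 58 were called. Of the genes tested, 4.92% thus rose and 6.56% fell in mRNA, beside 3.03% and 3.91% of all genes. In RPF, 5% rose and 8.33% fell, beside 3.13% and 4.62%. At the entry of glucose, the RPF of Slc2a3, a glucose transporter, ran from 6101 to 7128 in R98S and from 9365 to 14737 in WT clones and fell (log2 difference -0.83 ± 0.21 (SE, adjusted p = 0.0559)), while Slc2a1, the other main transporter, had a log2 difference of 0.42 ± 0.30 (SE, adjusted p = 0.477). At the exit of lactate, Bsg, the chaperone of the lactate transporters, fell in mRNA (log2 difference -0.76 ± 0.20 (SE, adjusted p = 0.0759)) and in RPF (log2 difference -0.64 ± 0.17 (SE, adjusted p = 0.0703)). Slc16a3, an exporter of lactate, rose from a low level in mRNA (log2 difference 1.40 ± 0.30 (SE, adjusted p = 0.0357)) and in RPF (log2 difference 2.13 ± 0.42 (SE, adjusted p = 0.0227)). Its RPF values were 44.1, 58.7 and 63.8 in R98S clones 11, 13 and 35 and 8.6, 8.33 and 22.4 in WT clones 28, 29 and 36. Slc16a1, a lactate transporter with far more mRNA, ran from 2852 to 3525.5 in R98S and from 3703 to 5266 in WT clones in mRNA. The log2 differences of Slc16a1 were -0.53 ± 0.18 (SE, adjusted p = 0.158) in mRNA and -0.34 ± 0.21 (SE, adjusted p = 0.396) in RPF, where the genotypes overlapped.

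Among other isozymes and side enzymes, the muscle enolase gene Eno3 fell in RPF (log2 difference -1.03 ± 0.23 (SE, adjusted p = 0.0354)), in the same direction as Eno1. Minpp1, a phosphatase that also acts on 2,3-bisphosphoglycerate, fell in mRNA (log2 difference -0.58 ± 0.16 (SE, adjusted p = 0.0856)) and had an RPF difference of 0.12 ± 0.17 (SE, adjusted p = 0.737). None of the genes for pyruvate entry and the dehydrogenase complex (9 tested), the regulators of fructose 2,6-bisphosphate and gluconeogenesis (4 tested) or the further pentose phosphate genes (8 tested) passed the test in mRNA, RPF or TE. Txnip, a glucose-induced inhibitor of glucose uptake, fell in mRNA (log2 difference -1.17 ± 0.20 (SE, adjusted p = 0.0132)) and in RPF (log2 difference -2.15 ± 0.31 (SE, adjusted p = 0.00526)). Of 17 tested genes of the hypoxia list, Ndrg1 fell in RPF (log2 difference -2.50 ± 0.41 (SE, adjusted p = 0.0117)) and Ddit4 rose (log2 difference 1.73 ± 0.33 (SE, adjusted p = 0.018)), both called in mRNA too, while Hif1a had an RPF difference of -0.59 ± 0.24 (SE, adjusted p = 0.204).

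The serine branch leaves glycolysis at 3-phosphoglycerate, between Pgk1 and Pgam1. Its last enzyme, Psph, had mRNA at 527, 512 and 407 in R98S clones 11, 13 and 35 and 64.4, 67.6 and 46.2 in WT clones 28, 29 and 36. Psph RPF was at 382, 426 and 249 in R98S clones 11, 13 and 35 and 12.4, 26 and 11.9 in WT clones 28, 29 and 36. Both rose, with log2 differences of 3.01 ± 0.26 (SE, adjusted p = 0.000297) and 4.36 ± 0.34 (SE, adjusted p = 0.00017), in the opposite direction to Pgk1 and Pgam1. Psph TE ran from 0.61 to 0.832 in R98S and from 0.193 to 0.385 in WT clones. Its log2 TE difference was 1.36 ± 0.25 (SE, adjusted p = 0.404), which did not pass the test here. The paper reports a higher Psph TE with the Babel test, and a shift toward heavier polysomes by qRT-PCR. Phgdh, the first enzyme of the branch, had log2 differences of -0.69 ± 0.26 (SE, adjusted p = 0.191) and -0.77 ± 0.25 (SE, adjusted p = 0.117), and Psat1, the transaminase between them, of -0.04 ± 0.17 (SE, adjusted p = 0.929) and -0.18 ± 0.19 (SE, adjusted p = 0.647).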

How the data were processed

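RPF and mRNA libraries of 6 Ba/F3 clones were analysed, 3 per genotype, with clones as replicates, so p-values measure the spread between clones. Per the labels and the methods, reads were trimmed, cleared of rRNA and tRNA with Bowtie2, aligned to mm10 with TopHat2 2.0.11 and kept at a mapping quality of at least 10. Footprints were counted in coding sequence without its first 15 and last 5 codons, and 3 technical footprinting replicates per clone were merged. The deposited signal values are gene counts that the authors divided by DESeq2 size factors. Dividing by the step of 1 read gave whole reads for 100% of values (relative tolerance 1e-06), and depth was summed from these. Every gene of the RPF table has at least 1 read in each library.

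The genotypes were compared on the scale log2(value + 1) by limma's moderated test (version 3.58.1 in R 4.3.3), for genes with a mean of at least 10, over all genes, with Benjamini-Hochberg adjustment and a threshold of 0.1. TE was the paired difference of RPF and mRNA within a clone: deviations of a clone from its genotype mean correlated between the assays (r from 0.218 to 0.681), and the numbers name the same culture. The fit was tested on simulated data with a common dispersion per assay (200 genes were given a log2 change of 1.5, and of those tested 98.5% were recovered in RPF, 74.4% in mRNA and 56.1% in TE). The genes changed in mRNA were drawn from those with too few footprints to test, so recovery cannot be compared between mRNA and RPF. Recovery of differences as small as those of the members (-0.92 to 0.59 in RPF) was not tested. Levels per kb used GENCODE vM21 exons or coding sequence less 60 bases (models for 89.2% of symbols in the mRNA table and 97.25% in the RPF table). DESeq2 1.42.0 and edgeR 4.0.16 on the recovered reads were alternatives, and the Babel test of the study was not run here.

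The members and all gene lists were chosen with earlier results of these data known. Every member is named. Values of each library are given for members past the threshold, for members whose genotypes did not overlap in both assays and for the most abundant mRNA per kb at steps with isozymes. Genes outside the set are named where they passed the threshold, with Psph, Phgdh and Psat1 always. A few others (Slc2a1, Slc16a1, Hif1a, Ldhc) were added after their values were seen.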

Additional observations from a re-analysis of the deposited data

How the results depend on the processing

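In RPF, 4 members were called with TMM normalization, with a pseudocount of 0.5 or 10 and with the median of each chromosome removed, and 3 (Eno1, Pfkm and Pfkp) without a filter on low values and with edgeR, where Gpi1 was at adjusted p-values of 0.108 and 0.101. Among all genes, these settings called 637 to 808. DESeq2 on the recovered reads called 7 members and 1095 of all 9580 genes. Limma with library weights called 7 members and 1799 of all genes. Leaving out 1 clone at a time gave 0 to 4 calls in RPF, 0 without R98S clone 11, R98S clone 13 or WT clone 28, 2 without WT clone 29 and 2 without WT clone 36, in fits with fewer samples. Among all genes, these fits called 229 to 1148. In mRNA, DESeq2 called 2 members (Pgk1 and Pgls) and 1283 of all 11344 genes. Library weights called 7 members and 2959 of all genes. Leaving out 1 clone gave 0 or 1 call, Hk2 without R98S clone 35 (801 of all genes called) and Taldo1 without WT clone 28 (1113 of all genes called). In TE, library weights called 3 members (Hk2, Pfkm and Pfkp) and 796 of all 9043 genes. Every other setting called 0 members, including the fit with no replicate block, which ignores that RPF and mRNA of a clone are paired. The cause of these differences between tools was not tested. No replicate block was possible between the genotypes, which share no clone number. Over all settings, the RPF differences of Gpi1, Pfkm, Pfkp, Eno1, Pgk1 and Pgam1 stayed below 0 and those of Rpe above 0. Differences near 0 turned sign. With 1 clone left out, the mRNA difference of Pfkm ran from -0.371 to 0.0287, the TE difference of Pgk1 from -0.207 to 0.0248 and that of Pgam1 from -0.211 to 0.0302, each above 0 without WT clone 29 alone, and with chromosome medians removed the TE difference of Pgk1 was 0.0288. Lengths of the longest transcript or coding sequence in place of all exons moved 8 isozyme shares by more than 1 SD, and 50 by less, put Hk1 above Hk2 in mRNA in both genotypes and made the mRNA share of Pfkm non-overlapping. They moved 29 of the mean density ratios by more than 1 SD and 25 by less. The smallest counts limit Aldoc, Hk3, Pfkfb2 and Pfkfb4 most, with the lowest at 6 reads in a library for Aldoc mRNA and 4 for Pfkfb2 RPF.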
